A study of Mus musculus with 4 samples.

Results

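The genes of retinoic acid synthesis, binding and reception were examined in mouse mitral valve by 12 probe sets for 9 genes, of 20380 probe sets on the array that carried the name of 1 gene. They comprised the retinaldehyde dehydrogenases Aldh1a1, Aldh1a2 and Aldh1a3, the receptors Rara, Rarb and Rxra, the cytosolic binding proteins Crabp1 and Crabp2, and the retinol transporter Stra6. Every probe set annotated to exactly 1 of these genes was taken. Aldh1a3 was chosen by its measured difference between the mutant arrays and WT, so its values are a description and were not tested. Total RNA was read on 4 oligonucleotide arrays of 1 colour. The WT group (Fbn1 +/+) held 1 array, the Het group (labelled C1039/+, without the substituted residue) 2 arrays, and the Hom group (C1039G on both copies) 1 array. The mutant gene encodes fibrillin-1, the glycoprotein of extracellular microfibrils; fibrillin-1 itself was not analysed here. The labels gave no age, sex, strain background or treatment, and did not say whether an array held 1 animal or a pool. The p-values therefore reflect how far these arrays scatter, which may be technical. For the comparisons between groups this scatter comes from the 2 Het arrays alone.

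Retinoic acid is made from retinol in steps. Retinol is taken up or stored with the help of carrier proteins, is oxidised to retinaldehyde by alcohol and retinol dehydrogenases, and is then oxidised irreversibly to retinoic acid by the retinaldehyde dehydrogenases. Inside the cell the acid is carried by the Crabp proteins to nuclear heterodimers of a retinoic acid receptor (RAR) and a retinoid X receptor (RXR), which sit on paired hexamers in DNA, or it is degraded by enzymes of the Cyp26 family. In the developing heart, Aldh1a2 of the epicardium and the posterior mesoderm is the best known source of the acid.

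Rarb is the textbook example of a receptor gene that responds to its own ligand, and its promoter shows the kind of element through which the pathway is read. The promoter windows of RefSeq on GRCm38.p6 run from 250 bases before to 50 after a gene start; 7 of the 9 genes had one, in 15 windows. The windows were searched on both strands for direct repeats of any of the hexamer AGGTCA, the variant AGTTCA, the variant GGGTCA or the variant GGTTCA, with a spacer of 1, 2 or 5 bases. A repeat with a spacer of 5 bases was found in 1 of the 15 windows, that of Rarb, and in 0.0974% of 32841 windows of all genes. Spacers of 1 and 2 bases gave 0 of the 15 windows, against 0.222% and 0.268% of all. A match is a description of letters and not of binding. The 100 bases that end at the Rarb start (chr14:16575477-16575576, minus strand, 5′ to 3′) are shown with the repeat, 53 to 37 bases before the start, in capitals.
Rarb: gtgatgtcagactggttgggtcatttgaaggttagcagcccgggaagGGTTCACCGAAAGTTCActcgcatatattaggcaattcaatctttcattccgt

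Values below are the deposited intensities, given in the order WT, then Het replicate 1 and Het replicate 2, then Hom. Intensities below 18.9, the 25th percentile of all values, were treated as equal to this floor when logarithms were taken, and probe sets with a mean over the 4 arrays of at least 62.6, the median, were kept for comparison across probe sets (10399 probe sets). Levels are compared between arrays for 1 probe set, never between probe sets. Het replicate 2 stood apart from the other arrays. It was at least 2-fold apart from Het replicate 1, of the same genotype label, at 9.83% of probe sets kept, whereas Hom and WT were 2-fold apart at 1.24%. Its median intensity was 54.0, against 63.7 to 65.5 on the others. Of the valve interstitial and fibroblast markers, 13 of 14 with a probe set passed the filter, among them Postn, Dcn and Col1a2, but so did all 15 cardiomyocyte markers, so the dissected tissue held heart muscle RNA. The cardiomyocyte median was 1.09 log2 units below WT in Het replicate 2 by the same measure that gave 0.46 above WT in Het replicate 1. In such bulk samples fewer cells of a type and less RNA per cell cannot be told apart.

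Only some of the 9 genes gave a signal that could be followed. Of the 12 probe sets, 6 passed the filter, for Aldh1a1, Aldh1a2, Aldh1a3, Rarb and Rxra (2 probe sets). A further 5 were below the floor on all 4 arrays, and Crabp2 was above it on 1 array alone. No difference among the 5 probe sets tested passed limma's test with Benjamini-Hochberg adjustment over all 10399 probe sets, where 0% of all probe sets were called in any comparison. With a single WT and a single Hom array, which are taken to scatter as the Het pair does, the fit left 95% confidence intervals from -1.54 to 1.87 log2 units over the 3 comparisons between groups. The Het pair was 2-fold apart at 9.83% of probe sets kept, against 1.24% for Hom and WT. Whether the lone arrays scatter as widely could not be tested.

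**Figure D1:**
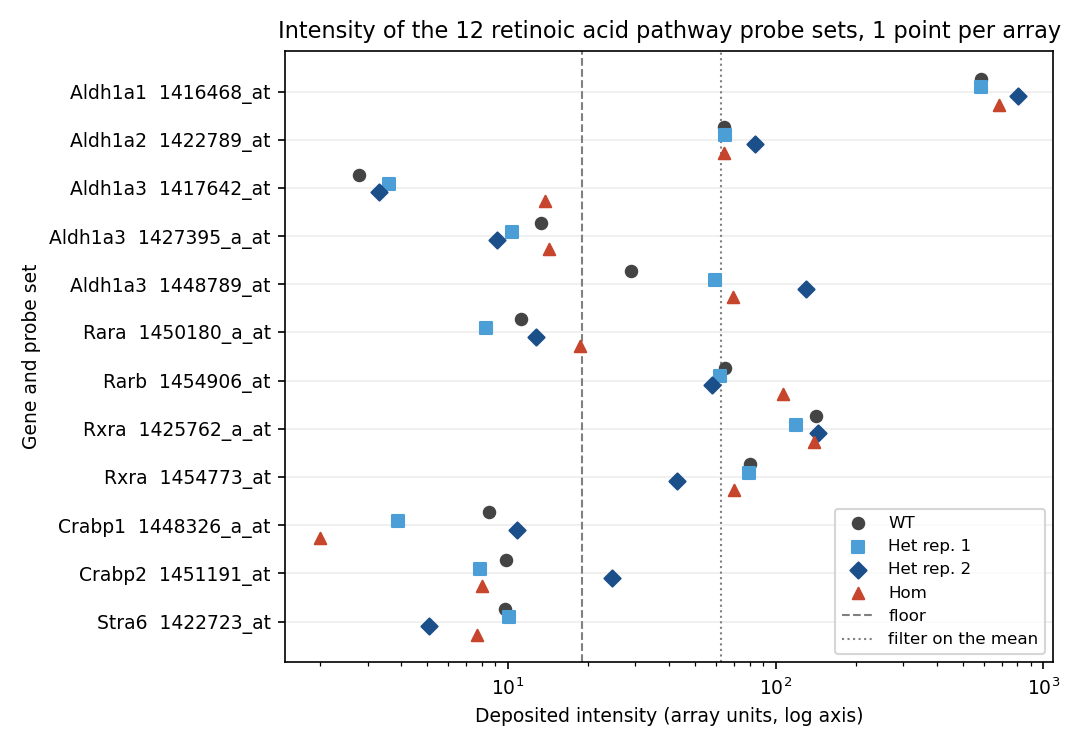
Deposited intensity (log axis, array units) of each of the 12 probe sets, 1 point for each of the 4 arrays; the dashed line is the floor at 18.9 and the dotted line the limit of 62.6 that the mean had to reach. Probe sets of Rara, Crabp1, Stra6 and 2 of the 3 of Aldh1a3 lie left of the floor on every array, and the widest spread right of it is that of Aldh1a3 1448789_at, from 28.8 to 129.6.

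Aldh1a1, a cytosolic retinaldehyde dehydrogenase also known for the oxidation of other aldehydes, was read by 1 probe set (1416468_at) at 583.3, 586.0, 806.5 and 683.0. Het replicate 2 and Hom were above WT, while Het replicate 1 equalled WT to within 0.01 log2 units, so the Het mean that follows rests on Het replicate 2. This mean was 0.24 log2 units above WT (limma SE 0.48, adjusted p = 1), and Hom was 0.23 above WT (SE 0.55, adjusted p = 1). The highest and lowest arrays were 1.38-fold apart. Aldh1a7, a close mouse paralog of Aldh1a1 whose transcript could share probes with it, read 393.1, 251.6, 283.9 and 410.8, with both Het arrays below WT. Its log2 difference from WT was -0.64 in Het replicate 1, where Aldh1a1 equalled WT, and -0.47 in Het replicate 2, where Aldh1a1 was 0.47 above WT. Whether each probe set binds only its own transcript was not tested.

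Aldh1a2, the dehydrogenase of the epicardium, was read at 64.1, 65.0, 84.1 and 64.2 by probe set 1422789_at. Het replicate 1 and Hom lay within 0.02 log2 units of WT, and Het replicate 2 was higher, by 0.39. The mean of the Het arrays was 0.21 log2 units above WT (limma SE 0.48, adjusted p = 1). For Hom against WT the difference was 0.00, with a 95% confidence interval from -1.17 to 1.18. A gap of this size in Het replicate 2 was within the spread of all probe sets kept, as it lay at percentile 81.3 of their differences from WT on that array. The probe set passed the filter only with Het replicate 2 included. Without that array its mean was 64.4, just below the limit of 64.5 for the remaining arrays.

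Epicardial and mesothelial markers were set beside these enzymes. Of the 15 listed, 11 had a probe set and 4 passed the filter. Wt1 and Msln, which define these cells, were below the floor on every array, and Upk3b read 34.3, 43.2, 34.5 and 36.1. Tcf21, a transcription factor of epicardium-derived fibroblasts, read 277.8, 247.4, 391.3 and 343.9, and Gpm6a 46.0, 52.6, 113.1 and 70.6. Both were highest in Het replicate 2, as Aldh1a1 and Aldh1a2 were. The other markers kept, Krt18 (74.9, 182.8, 69.8 and 96.8) and Krt8 (100.7, 134.8, 111.6 and 95.7), were highest in Het replicate 1. The summed intensity of the 11 markers was 636.1, 751.7, 798 and 745.3. Their part in the Aldh1a1 and Aldh1a2 values was not tested.

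Aldh1a3, the third retinaldehyde dehydrogenase, read 28.8, 59.5, 129.6 and 69.6 by probe set 1448789_at. All 3 mutant arrays were above WT, and Het replicate 2 was the highest. The differences from WT were 1.05 log2 units for Het replicate 1 (2.07-fold) and 2.17 for Het replicate 2 (4.5-fold), while Hom differed by 1.27 (2.42-fold). All 3 mutant arrays were at least 2-fold above WT at 0.212% of all probe sets kept, a share from which nothing is read here because the gene was chosen for this pattern. The Het arrays differed from each other by 1.12 log2 units, about as much as Het replicate 1 and Hom differed from WT. Hom, with 2 mutant copies, was 0.34 log2 units below the mean of the Het arrays, with 1 mutant copy, and lay between them.

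The other probe sets of Aldh1a3 did not carry this pattern. Probe set 1417642_at, annotated with the same sequence record as 1448789_at, read 2.8, 3.6, 3.3 and 13.8, and probe set 1427395_a_at read 13.3, 10.4, 9.1 and 14.3. Both were below the floor on all 4 arrays, so neither gives a fold. The pattern rests on 1 of 3 probe sets, and on a WT value of 28.8, not far above the floor. It also passed the filter on mean intensity through its highest array: without Het replicate 2 the mean was 52.6, below the limit of 64.5 for the remaining arrays, while the differences of Het replicate 1 and Hom from WT do not use that array.

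**Figure D2:**
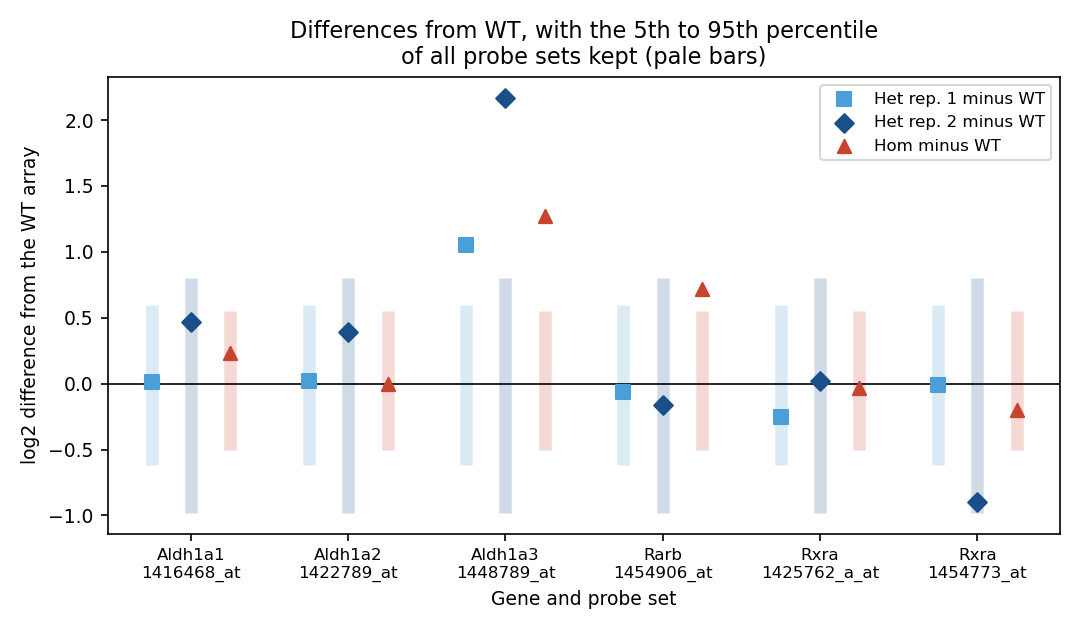
Difference from the WT array (log2 units) of the 6 probe sets that passed the filter, 1 point for each mutant array; pale bars run from the 5th to the 95th percentile of all 10399 probe sets kept, for example -0.98 to 0.80 for Het replicate 2. Aldh1a3, chosen for this difference, lies above the bars in all 3 arrays, Rarb lies above its bar in Hom (0.72 against 0.55), and the other points lie within theirs.

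The probe sets whose profile over the 4 arrays was nearest to that of Aldh1a3 were found by the root mean square distance of log2 intensities, each centred on its own mean. The nearest was Ccl2, a chemokine that attracts monocytes, at 79.9, 140.1, 376.4 and 209.1 (distance 0.135 log2 units). Plek, pleckstrin, a protein kinase C substrate of platelets and leukocytes, followed at 91.0, 214.8, 456.8 and 185.6 (0.172). Wnt7a, a Wnt ligand, read 33.9, 96.4, 157.5 and 86.3 (0.184), and the metalloprotease inhibitor Timp1 1027.5, 1687.5, 3633.8 and 1639.9 (0.213). The chloride channel regulator Clca3a2 was next, at 49.7, 77.5, 149.8 and 115.5 (0.241). In each of the 5, WT was the lowest array and Het replicate 2 the highest, which follows from choosing them by likeness to Aldh1a3. The profiles of Aldh1a1 and Aldh1a2 were much flatter, and a flat profile has many neighbours: 2596 and 3016 probe sets lay within 0.2 log2 units of them. The nearest to Aldh1a1 were Faap20, Cul4b, Fnta, Cndp2 and Tsen15 at distances of 0.014 to 0.022, and to Aldh1a2 Sgk3, Mrpl23, Ndufs8, Atp6ap1 and Ubac2 at 0.008 to 0.020. With 4 arrays such likeness is a description only.

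**Figure D3:**
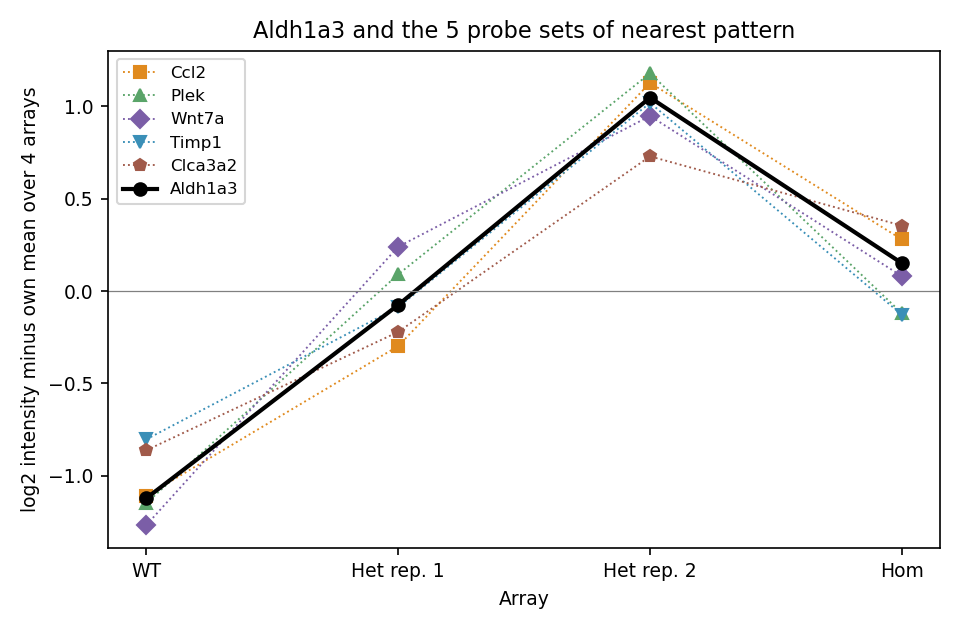
Log2 intensity of Aldh1a3 (1448789_at, black) and of the 5 nearest probe sets on each array, minus each probe set's own mean over the 4 arrays. WT is the lowest and Het replicate 2 the highest point of all 6 profiles, as the choice by likeness to Aldh1a3 entails. Lines only join the points of 1 gene.

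Macrophage markers were partly high on the arrays where Aldh1a3 was high. The median of the 13 markers kept was 0.56 log2 units above WT in Het replicate 2, with 12 above WT, but -0.13 in Het replicate 1, with 5 above, and 0.03 in Hom, with 7 above. Fcer1g, the Fc receptor gamma chain, was the member at least 2-fold above WT in all 3 mutant arrays, at 34.6, 112.2, 283.0 and 86.1. The summed intensity of the 14 markers with a probe set was 4237, 3657, 6475 and 4171, so WT was not the lowest, unlike for Aldh1a3. Their part in the Aldh1a3 values was not tested.

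Among the receptors, Rarb stood out in Hom. Rarb, the retinoic acid receptor whose promoter holds the repeat shown above, was read by probe set 1454906_at at 64.7, 62.1, 58.0 and 106.3. Hom was the highest array and the other 3 lay close together, from 58.0 to 64.7. Hom was 0.72 log2 units above WT (1.64-fold, limma SE 0.54, 95% confidence interval -0.44 to 1.87, adjusted p = 1) and 0.82 above the mean of the Het arrays (1.77-fold, SE 0.47, interval -0.18 to 1.83, adjusted p = 1). Neither difference passed the test or reached 2-fold, and the mean of the Het arrays was 0.11 log2 units below WT (SE 0.47). Hom was the highest array for 1 of the 6 probe sets of the pathway that passed the filter, and for 21.8% of all probe sets kept. The difference rests on 1 Hom array and 1 probe set. Both Het arrays were below the filter limit of 62.6, and WT was just above it. The place of Rarb among the probe sets kept therefore leans on its high value in Hom. The filter was not recomputed without Hom.

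Rxra, a retinoid X receptor that pairs with the RARs and several other nuclear receptors, was read by 2 probe sets that disagreed in Het replicate 2. Probe set 1425762_a_at read 142.1, 119.7, 143.8 and 138.9, and its arrays were at most 1.2-fold apart. Probe set 1454773_at read 80.1, 79.7, 42.9 and 69.8, with Het replicate 2 the lowest, 0.90 log2 units below WT where the first probe set was 0.02 above. On the other arrays each was within 0.25 log2 units of WT. For Het against WT the log2 difference was -0.12 for the first (limma SE 0.47, adjusted p = 1) and -0.45 for the second (SE 0.51, adjusted p = 1), and for Hom against WT it was -0.03 and -0.20. The Actb control probe sets had a 3' to 5' intensity ratio, which increases as RNA degrades, of 3.04 in Het replicate 2 and of 2.16 to 2.25 on the other arrays. For the Gapdh controls it was 4.65 in Het replicate 2 and 3.19 to 4.18 on the others. The part of RNA integrity in the disagreement was not tested.

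Rara, the most broadly expressed RAR, was below the floor on every array at 11.2, 8.3, 12.8 and 18.7 by its probe set 1450180_a_at. The remaining RAR, Rarg, was outside the set and read 227.1, 165.0, 192.7 and 244.1 by its brighter probe set, with both Het arrays below WT and Hom above it. The log2 difference of Het from WT was -0.35 (limma SE 0.47, adjusted p = 1). Its other probe set was below the floor on all 4 arrays.

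The binding and uptake proteins gave little signal. Crabp1 read 8.5, 3.9, 10.8 and 2.0, and Stra6, the receptor that takes retinol from its plasma carrier, read 9.8, 10.1, 5.1 and 7.7. Both stayed below the floor on all 4 arrays. Crabp2, which hands retinoic acid to the RARs, read 9.9, 7.9, 24.5 and 8.0 and passed the floor in Het replicate 2 alone. Intensities this low do not show that the transcripts were absent, and no fold is given for them.

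Over the 6 probe sets that passed the filter, all 3 mutant arrays were above WT for 3, Aldh1a1, Aldh1a2 and Aldh1a3, and below WT for 1, Rxra 1454773_at. The same held for 19.8% of all probe sets kept in each direction, and Aldh1a3 was chosen for being among them. At least 2-fold from WT, by the mean of the Het arrays, was 1 of the 6, against 1.71% of all, and by Hom 1 of the 6, against 1.24% of all; both counts are Aldh1a3. On the single Het arrays the count was also 1 of the 6, against 2.01% of all for Het replicate 1 and 7.24% for Het replicate 2. The highest and the lowest array were at least 2-fold apart for 1 of the 6, again Aldh1a3, and for 16.2% of all. Between Hom and the mean of the Het arrays 0 of the 6 were 2-fold apart, against 1.52% of all. Het replicate 2 was the highest array for 4 of the 6 (30.5% of all) and the lowest for the others (40.8% of all). Among these 4, Aldh1a2 and Aldh1a3 passed the filter only with Het replicate 2 included, so their place in the counts depends on that array. The place of Rarb leans in the same way on Hom, its highest array. All these comparisons with WT share the WT array, and Aldh1a1 and Aldh1a2 in Het replicate 1 were higher than WT by only 0.01 and 0.02 log2 units. Aldh1a2 in Hom read 64.2 against 64.1 in WT, a difference that rounds to 0.00 log2 units. With the arrays centred on a common median, Aldh1a1 in Het replicate 1 was at -0.01 and Aldh1a2 in Hom at -0.04, so of the 3 genes only Aldh1a3 stayed above WT on all 3 mutant arrays under that scaling.

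The rest of the retinoid pathway was followed in 5 lists holding 83 genes, of which 72 had a probe set of their own and 40 passed the filter by their brightest probe set; a few genes stand in more than 1 list. Limma's test called 0 of the 40 in any comparison. The median difference from WT was -0.09 log2 units for Het replicate 1, -0.25 for Het replicate 2 and -0.02 for Hom, against 0.017, -0.066 and 0.014 for all probe sets kept. All 3 mutant arrays were below WT for 12 of the 40 and above WT for 7, against 19.8% of all probe sets kept either way. None of the 40 was 2-fold above WT on a mutant array. At least 2-fold below WT were 1 gene on the first Het array, 4 on the second and 0 on Hom, against 1.17%, 4.67% and 0.519% of all probe sets kept.

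**Figure D4:**
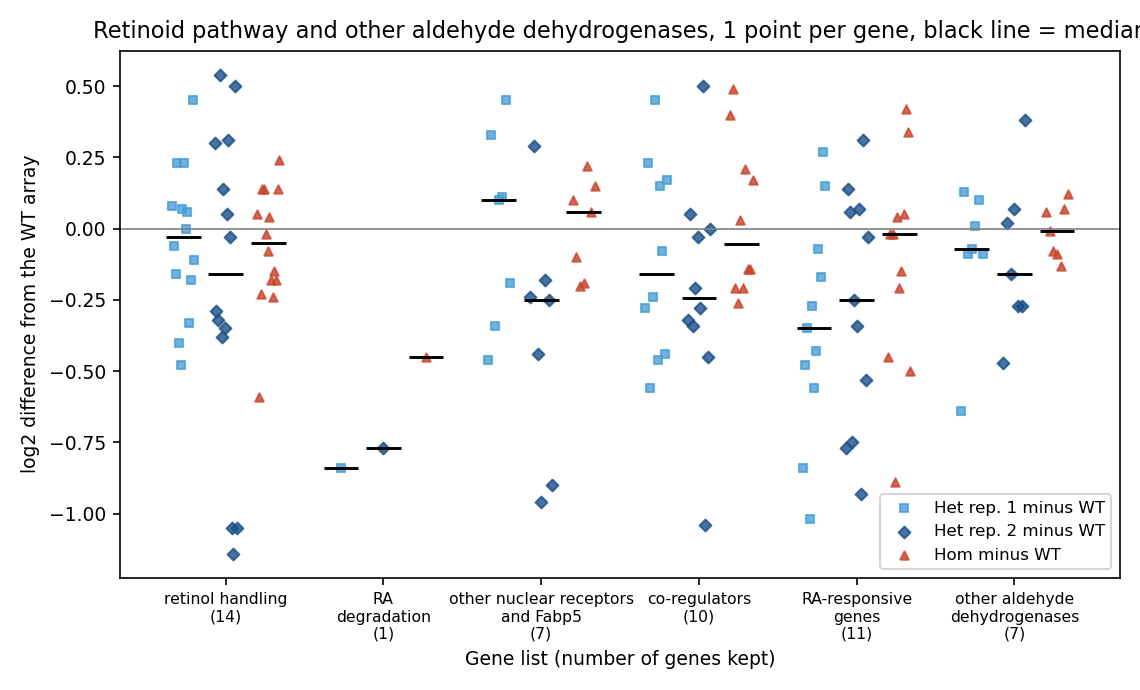
Difference from the WT array (log2 units) of the genes that passed the filter in the 5 pathway lists and in a list of other aldehyde dehydrogenases, 1 point per gene and mutant array, with the number of genes under each list and the list's median as a black line. The median of the 11 retinoic acid-responsive genes is -0.35 for Het replicate 1, -0.25 for Het replicate 2 and -0.02 for Hom, and 4 genes lie below -1 in Het replicate 2.

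Cyp26a1, which degrades retinoic acid and is itself induced by it, was the member of the degrading family with a probe set of its own and read 522.0, 292.6, 307.1 and 383.2. All 3 mutant arrays were below WT, the Het arrays lay close together, and Hom lay between them and WT. The log2 difference was -0.80 for Het against WT (limma SE 0.47, 95% confidence interval -1.80 to 0.20, adjusted p = 1) and -0.45 for Hom against WT (SE 0.54, adjusted p = 1). The Het arrays differed from each other by 0.07 log2 units, and both are set against the same WT array.

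Of the retinoic acid-responsive genes, 11 of 21 with a probe set passed the filter, and 9 of the 11 were below WT on the first Het array, and 7 on the second and on Hom each, against 47.7%, 54.8% and 47.6% of all probe sets kept. All 3 mutant arrays were below WT for 3 and above WT for 0, against 19.8% of all probe sets kept in each direction. The 3 were Cyp26a1, Meis1 and Nrip1. The other probe set of Nrip1 was above WT in Het replicate 1 (129.0 against 107.9). Meis1, a homeobox partner of Hox proteins, read 112.5, 55.3, 67.1 and 60.9, with WT above all 3 mutant arrays. Its log2 difference was -0.89 for Het against WT (limma SE 0.47, adjusted p = 1) and -0.89 for Hom against WT (SE 0.55, adjusted p = 1). Hoxa5 was dim, at 43.6, 26.4, 3.1 and 8.8, and did not pass the filter. The highest members were Bhlhe40, a repressor of the circadian clock (112.8, 100.3, 140.0 and 150.5), and Tshz1 (90.9, 109.7, 62.8 and 115.1), whose other probe set was below WT in all 3 mutant arrays. Among the members, the target genes Crabp2 and Stra6 were at the values given above, and Rarb was above WT in Hom where Cyp26a1 and Meis1 were below it.

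In the list of retinol handling, 14 of 28 genes with a probe set passed the filter, with medians of -0.03, -0.16 and -0.05 log2 units in Het replicate 1, Het replicate 2 and Hom. Rdh10, the main retinol dehydrogenase of the embryo, read 87.2, 92.0, 107.6 and 90.5. Dhrs3, which turns retinaldehyde back into retinol, read 87.3, 62.6, 96.0 and 86.1. Dgat1, an acyltransferase that can esterify retinol, was the highest of those kept, at 147.3, 201.5, 207.8 and 162.6 (0.47 log2 units for Het against WT, limma SE 0.47, adjusted p = 1). The extremes of the whole list were dim and failed the filter, namely Rdh1 (18.6, 5.6, 10.4 and 43.1), the carotene-cleaving enzyme Bco1 (50.1, 25.7, 24.6 and 10.3) and Aldh8a1 (66.3, 33.0, 6.2 and 45.0). At least 2-fold below WT in Het replicate 2 were 3 of the 14, Lpl, Rbp3 and Rbp7, against 4.67% of all probe sets kept. Of these Lpl, the lipoprotein lipase, read 1766.9, 1640.8, 851.1 and 2090.7, and Rbp7, a retinol-binding protein of endothelium and fat, 106.6, 93.8, 48.5 and 94.1. On the same array the marker medians from WT were -0.58 log2 units for endothelial, -1.09 for cardiomyocyte and -0.94 for interstitial markers, and 0.56 for macrophage markers. The adipocyte marker Fabp4 read 743.8, 743.5, 221.8 and 830.2, although the fat markers Adipoq, Lep, Pparg and Cidec were below the floor on every array. The part of these cell types was not tested.

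Partner receptors and co-regulators showed no difference that passed the test. Of the other nuclear receptors, with Fabp5, 7 of 15 passed the filter, and their medians were 0.10, -0.25 and 0.06 log2 units. Fabp5, which can carry retinoic acid to another receptor, read 3616.3, 2861.7, 2663.8 and 3150.4, with all 3 mutant arrays below WT. Nr2f2, an orphan receptor induced by retinoic acid, was lowest in Het replicate 2 at 137.2, 146.8, 70.7 and 120.1, as was the dim Nr2c2 at 66.0, 69.7, 25.6 and 63.5. Rxrg and Vdr were below the filter, Rxrg with 1 array above the floor (41.6 in Het replicate 1) and Vdr highest in Hom (20.3, 3.9, 13.4 and 44.8). Of the co-regulators 10 of 11 passed the filter, with medians of -0.16, -0.25 and -0.06. Nrip1, a corepressor induced by retinoic acid, read 122.0, 82.6, 96.5 and 105.5, and the Mediator subunit Med1 170.5, 161.2, 83.2 and 154.8, each with all 3 mutant arrays below WT by the brightest probe set. A further probe set of Nrip1 was above WT in Het replicate 1. The other Med1 probe set kept read 107.8, 55.7, 98.7 and 98.0. It was also below WT on all 3 mutant arrays, but was lowest in Het replicate 1 and 0.13 log2 units below WT in Het replicate 2. The coactivator Ncoa3 read 97.4, 113.9, 100.9 and 136.5, and the corepressor subunit Tbl1xr1 246.1, 274.0, 348.3 and 284.6, although of the further probe sets of Tbl1xr1 1 was above WT on all 3 mutant arrays, 1 below it on all 3, and 1 below the floor throughout.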

How the data were processed

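The authors deposited linear intensities of 22690 probe sets on 4 arrays, made with software that is not given in the sources used here. The trimmed mean (2% left out at each end) was 150.1 on every array, so the scaling was kept as deposited. The platform annotation named 1 gene for 20380 probe sets, several genes for 691 and no gene for 1555; 64 controls were left out, and symbols were updated by gene identifier against the RefSeq table of GRCm38.p6. Values were floored and log2 transformed, and probe sets filtered as the text states.

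Probe sets were fitted with limma 3.58.1 in R 4.3.3 (lmFit, eBayes, Benjamini-Hochberg, threshold 0.05), for 3 groups with 1 residual degree of freedom and for a slope on mutant allele copies with 2. Aldh1a3 entered the fit but its test is not reported. Figures were drawn with matplotlib 3.10.9.

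The members and gene lists were chosen with earlier results of these data known. Named genes were all members, the 5 nearest profiles of each synthesis enzyme, and in each pathway list the 2 highest and 2 lowest by the mean of the mutant arrays minus WT, with any gene called or 2-fold from WT in all 3. Other genes named were chosen after their values were seen. Marker lists covered epicardial, interstitial, endothelial, cardiomyocyte, macrophage, erythroid, melanocyte, adipocyte and smooth muscle cells.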

Additional observations from a re-analysis of the deposited data

How the results depend on the processing

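With each array centred on the common median, quantile normalization, no floor, no filter, a filter at the 75th percentile or eBayes with trend and robust, the number of tested probe sets of the pathway past the adjusted threshold stayed at 0 in all 4 comparisons. Over all probe sets limma called 0 in the main setting (unadjusted p under 0.05 for 127 in Het against WT, 64 in Hom against WT, 100 in Hom against Het and 79 in the slope). Quantile normalization called 3 in Het against WT and 1 in Hom against Het, and eBayes with trend and robust 4 and 4. The count at least 2-fold from WT, 1 for the mean of the Het arrays and 1 for Hom, became 0 and 0 with the filter at the 75th percentile, which left Aldh1a1 alone, and ranged from 0 to 1 when a Het array was left out, because Aldh1a3 fails the filter without Het replicate 2. Centring put the median of all probe sets kept 0.175 log2 units above WT in Het replicate 2, against -0.066 as deposited, and raised the values there, for example Aldh1a1 from 0.47 to 0.71, Aldh1a2 from 0.39 to 0.63, and Rarb from -0.16 to 0.08. These differences, none past the threshold, changed sign: with quantile normalization Aldh1a1 in Hom against Het to 0.05 (from -0.01) and Aldh1a2 in Hom against WT to -0.04 (from 0.00); with centring Aldh1a2 in Hom against WT to -0.04, Rarb in Het against WT to 0.00 (from -0.11) and Rxra 1425762_a_at in Hom against Het to -0.07 (from 0.08). Leaving out Het replicate 1 or 2 gave Hom against Het as -0.24 and 0.22 for Aldh1a1, -0.05 and 0.21 for Rxra 1425762_a_at, and 0.70 and -0.19 for Rxra 1454773_at (0.26 with both), and gave Het against WT as 0.02 and -0.25 for Rxra 1425762_a_at (-0.12 with both). For single arrays, Rarb in Het replicate 2 went from -0.16 against WT to 0.06 with quantile normalization, and against Het replicate 1 from -0.10 to 0.16 with centring and 0.15 with quantile normalization. The other differences between groups kept their direction under the alternatives in which they could be computed; the cause of these changes was not tested. Leaving out a Het array left no residual degree of freedom for the group fit, so only the slope was refitted. No paired analysis was possible because WT and Hom each hold 1 array. The number of arrays and intensities near the floor limit every value.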

Other observations

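Aldehyde dehydrogenases outside retinoic acid synthesis were also read. Of 13 listed, 12 had a probe set and 7 passed the filter, with medians of -0.07, -0.16 and -0.01 log2 units from WT in Het replicate 1, Het replicate 2 and Hom, and limma called 0 of them. Aldh2, the mitochondrial enzyme that oxidises acetaldehyde, read 319.2, 349.4, 323.4 and 317.9 in WT, Het replicate 1, Het replicate 2 and Hom, and Aldh9a1 189.4, 202.7, 157.4 and 198.5. The extremes were dim probe sets below the filter. Aldh1b1 read 42.8, 19.4, 22.4 and 45.8, with both Het arrays below WT and Hom, Aldh4a1 71.7, 83.7, 21.9 and 64.2, Aldh3b1 48.3, 52.5, 73.5 and 57.5, and Aldh3a1 33.6, 38.6, 30.3 and 57.9.

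The medians of the marker lists that follow lay furthest from WT in Het replicate 2, though only slightly so for melanocyte and smooth muscle markers. The median difference from WT there was 1.42 log2 units for the 2 erythroid markers kept, 0.19 for the 8 melanocyte markers, 0.24 for the 6 smooth muscle markers, -0.99 for the 2 adipocyte markers and -0.94 for the 13 interstitial markers, against -0.09, -0.14, 0.15, 0.21 and -0.28 in Het replicate 1 and 0.14, 0.09, 0.10, 0.33 and -0.27 in Hom. Actg2, a smooth muscle actin, was at least 2-fold above WT in all 3 mutant arrays, at 37.2, 111.5, 89.6 and 81.8. Tagln (882.9, 1217.5, 2057.5 and 1215.1) and Acta2 (2669.1, 2934.3, 3770.6 and 2970.2) were also above WT on all 3 mutant arrays. That made 3 of the 6 smooth muscle markers kept, against 19.8% of all probe sets kept. The others kept went the other way on some arrays, namely Des (152.4, 163.0, 63.0 and 123.9), Smtn (112.2, 124.9, 60.8 and 116.3) and Mylk (111.8, 78.3, 111.0 and 79.3). Myh11 (2.5, 18.9, 8.0 and 2.8) and Cnn1 (54.2, 22.0, 59.3 and 46.5) did not pass the filter, and Cnn1 was below WT in Het replicate 1 and Hom.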
